A study of Mus musculus with 6 samples.

Results

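A set of 10 genes of hepatic bile acid handling was followed in livers of mice fed the NASH diet, which is rich in fructose, trans fat and cholesterol. They were taken by gene symbol for their roles, with earlier results of these data known, and all 10 are among the 17460 gene symbols of the deposited table. Cyp7a1, Cyp8b1, Hsd3b7, Cyp27a1 and Cyp7b1 encode enzymes of synthesis, Slc10a1, Abcb11 and Abcb4 encode transporters, Nr1h4 encodes the bile acid receptor FXR and Nr0b2 encodes SHP. The comparison asked whether their mRNA differed between 3 control and 3 Blnc1 LKO livers, all C57BL/6 and taken at 9 months of age after 24 weeks on the diet. The study made Blnc1 LKO mice by giving Cas9 transgenic mice an adenovirus that carries a pair of guide RNAs against Blnc1, a long noncoding RNA. Control mice of the same Cas9 line received an adenovirus for GFP in the study's scheme, which its text spells out for the high-fat diet experiment. Cas9 is made in all cells of this line, and adenovirus given by tail vein reaches mainly hepatocytes, so other liver cells can keep Blnc1.

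Bile acids are made from cholesterol in hepatocytes. The classical route starts with CYP7A1, and the alternative route starts with CYP27A1 and continues with CYP7B1. CYP8B1 adds the hydroxyl group that separates cholic acid from the other primary bile acids. NTCP, the product of Slc10a1, takes bile acids up from portal blood, and BSEP, the product of Abcb11, exports them into the bile canaliculus. FXR senses the bile acid load, induces Nr0b2 and Abcb11, and restrains Cyp7a1 and Cyp8b1 in part through SHP.

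Abcb11 is a textbook FXR target, and its promoter is shown because FXR binds an inverted repeat of a short receptor motif with a single base between its arms. The repeat AGGTCANTGACCT was searched on both strands, with at most 1 mismatch, in the 250 bases before each start in RefSeq (GRCm38.p6), and 0.0791% of 32851 promoters held it. Of the 9 promoters listed for 8 of the genes, 1 held it, that of Abcb11. Cyp7a1 and Cyp7b1 had no entry. The match lies 63 to 51 bases before the start, and the stretch printed is chr2:69342647-69342699 on the − strand, with the match in capitals.
Abcb11: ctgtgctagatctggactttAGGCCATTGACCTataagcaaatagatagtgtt
A single arm, AGGTCA, which is also part of the repeat, was present in 3 of the 9 promoters, those of Abcb11, Nr1h4 and Slc10a1, against 14.0% of all promoters. These matches are letters in a short window, and binding was not measured.

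The values used below are normalized read counts, each gene's reads scaled by its library's size factor. The 6 libraries held 65384969 to 89350181 reads on listed genes, and each of the 10 genes had at least 1167 reads in every liver. The table has no row named Blnc1, so the loss of Blnc1 could not be checked in these livers. For this model the study reported a partial loss in whole liver, a greater loss in isolated hepatocytes and little change in non-parenchymal cells. RefSeq gives that name as a synonym of Paqr9, which the study treats as a separate gene next to Blnc1, so the Paqr9 row is no measure of Blnc1. All 8 hepatocyte markers were detected in every liver, and their summed count was 5104631 to 5747423 in control and 4978642 to 6032327 in Blnc1 LKO livers, of which Alb was 75.7% in control livers. Summed marker counts in control against Blnc1 LKO livers were 50707 to 59050 against 56628 to 63052 for 6 macrophage genes, 89543 to 99222 against 74437 to 89993 for 6 stellate cell genes, and 1058 to 1388 against 947 to 1474 for 6 lymphocyte genes. For 5 endothelial genes they were 18361 to 19311 against 17617 to 17798, which do not overlap. Of all single genes tested, 5.28% had every Blnc1 LKO liver below every control liver. At an unadjusted p under 0.05 (limma), 3 of 6 macrophage genes were higher, and 2 of 6 stellate cell and 3 of 5 endothelial genes were lower, in Blnc1 LKO livers. Of all genes, 2.94% were higher and 2.74% lower at that level. After adjustment limma called 0 of these markers, and DESeq2 called 2 stellate cell genes. No marker was at 0 in any liver, and the part of these cell types in the results was not tested. The labels do not say whether the libraries of a group share a litter or day. A limma p-value sets the difference between groups against the spread within groups, which limma adjusts using all genes, and it covers only these 6 livers.

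None of the 10 genes differed between the groups at an adjusted p under 0.05 (limma, Benjamini-Hochberg over 17297 genes). Among all genes tested, 0.00578% passed. At an unadjusted p under 0.05, 3 of the 10 were higher in Blnc1 LKO livers (Cyp7b1, Slc10a1 and Cyp27a1) and 0 were lower, against 2.94% of all genes higher and 2.74% lower. Of the 10, 8 had a positive log2 fold change and the median of the 10 was 0.15, while 49.6% of all genes were positive with a median of −0.0010. The mean log2 deviation of the 10 from the control mean was −0.024, 0.068 and −0.044 in control replicates 1 to 3. In Blnc1 LKO replicates 1 to 3 it was 0.35, −0.029 and 0.17, so the mean of replicate 2 lay within the control range. The genes were mixed in replicate 2. Cyp7a1 deviated by −0.37 and Nr0b2 by −0.48, while Cyp7b1 deviated by 0.28 and Hsd3b7 by 0.14. In bulk liver, fewer cells of a type and less RNA per cell cannot be told apart. DESeq2 on the reads recovered from the values, which called 0.486% of all genes, also called 0 of the 10, and so did edgeR. At an unadjusted p under 0.05, DESeq2 had 4 of the 10 higher in Blnc1 LKO livers (Cyp27a1, Hsd3b7, Slc10a1 and Abcb11), against 2.47% of all genes. edgeR had 4 (Cyp27a1, Cyp7b1, Slc10a1 and Abcb11), against 2.98%.

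**Figure D1:**
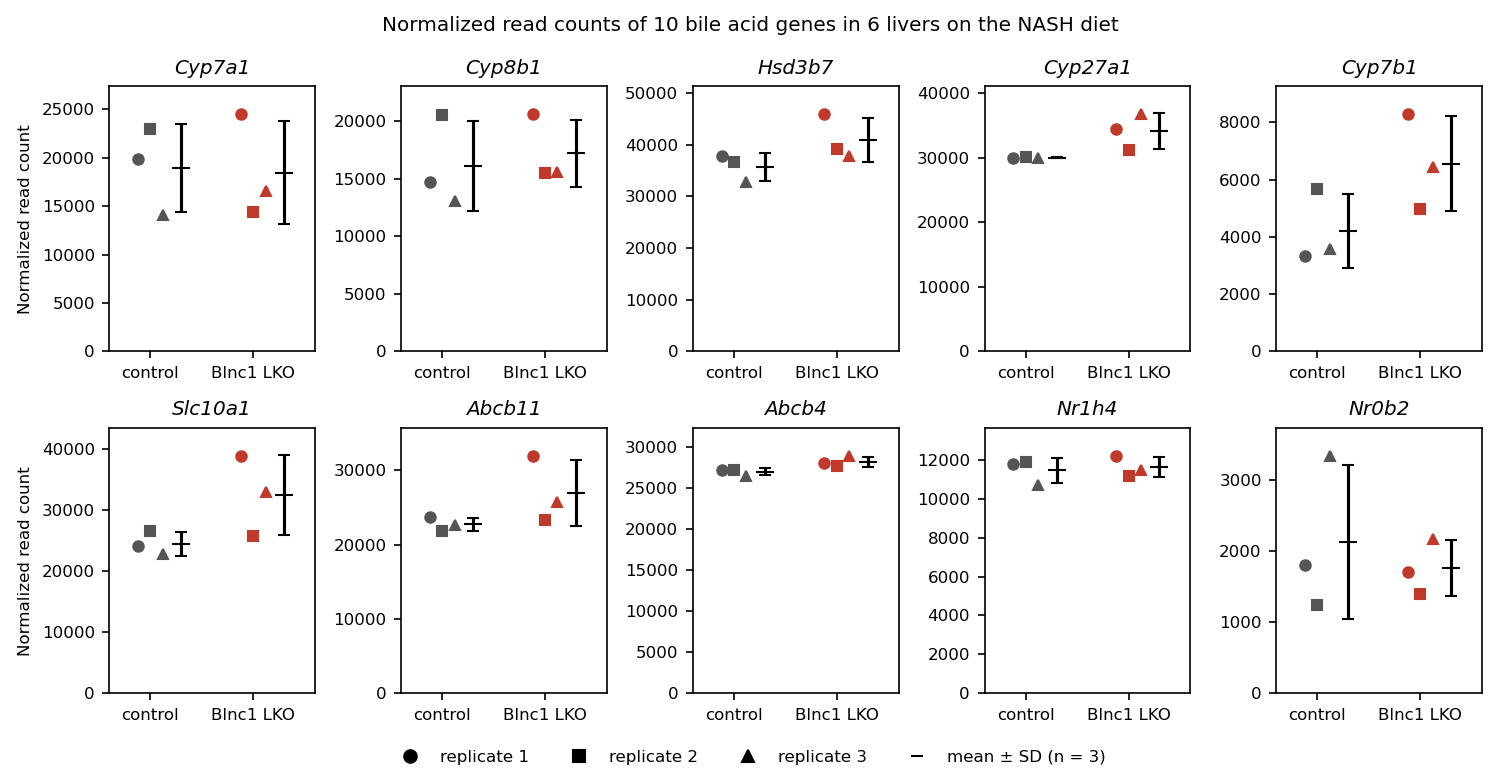
Normalized read count of each gene (y axis, from 0) in control (grey) and Blnc1 LKO (red) livers, with one marker shape per replicate number and the mean ± SD (n = 3) beside them. The groups overlap for 8 of the 10 genes, and for Cyp27a1 and Abcb4 every red point lies above every grey point.

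Cyp7a1, the rate-limiting enzyme of the classical route, maps to chromosome 4, − strand (6265612 to 6275633 in GRCm38, the build of all places given here). Normalized read counts were 19824, 22968 and 14068 in control replicates 1 to 3 and 24474, 14391 and 16553 in Blnc1 LKO replicates 1 to 3. The highest value was in Blnc1 LKO replicate 1 and the lowest in control replicate 3, and each group spanned most of the range of the other. The log2 fold change was −0.045 (SE, the standard error, 0.22, 95% interval −0.54 to 0.45, adjusted p = 0.999, limma). Its sign changed in 4 of the 6 fits that left out 1 liver, so no direction is given for Cyp7a1.

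Cyp8b1, the sterol 12-alpha-hydroxylase, lies on chromosome 9, − strand (121914356 to 121916305). Control livers had counts of 14711, 20504 and 13062, and Blnc1 LKO livers had 20597, 15500 and 15606. As for Cyp7a1, control replicate 2 and Blnc1 LKO replicate 1 were the highest of their groups. The log2 fold change of 0.11 (SE 0.17, interval −0.27 to 0.50, adjusted p = 0.980, limma) was smaller than the spread between livers, and its sign changed without Blnc1 LKO replicate 1 or control replicate 3. The log2 ratio of Cyp8b1 to Cyp7a1 within a liver, which sets the 12-alpha-hydroxylase beside the first enzyme, was −0.23 ± 0.17 for control and −0.076 ± 0.18 for LKO (SD, n = 3 each), and the groups overlapped (two-sided exact permutation p = 0.4). The difference of 0.16 ranged from 0.060 without control replicate 1 to 0.24 without Blnc1 LKO replicate 1. With 3 livers against 3 the smallest p of this test is 0.1.

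Hsd3b7 encodes the 3-beta-hydroxy steroid dehydrogenase that acts after 7-alpha-hydroxylation in both routes. It lies on chromosome 7 (+ strand, 127800604 to 127803802). Its counts were 37791, 36551 and 32717 in control and 45825, 39190 and 37775 in Blnc1 LKO livers. Blnc1 LKO replicate 3 lay just under control replicate 1, and the other Blnc1 LKO livers lay above all controls. The log2 fold change was 0.20 (SE 0.091, interval −0.013 to 0.40, adjusted p = 0.891, limma), and it was 0.11 without Blnc1 LKO replicate 1. In GENCODE M21, 99.2% of the exonic bases of Hsd3b7 also lie in exons of Gm49388 or 9430064I24Rik, and since the annotation and strand setting used for counting are not given in the sources used here, its level is uncertain.

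Cyp27a1, the mitochondrial enzyme that opens the alternative route, is on the + strand of chromosome 1 (74713574 to 74737892). Control livers were almost identical, with counts of 29849, 30017 and 29998, while Blnc1 LKO livers had 34418, 31094 and 36662. Every Blnc1 LKO liver lay above every control liver. The mean was 29955 ± 91.9 for control and 34058 ± 2802 for LKO (SD, n = 3 each), which gave a log2 difference of 0.18 (SE 0.071, interval 0.019 to 0.34, unadjusted p = 0.0323, adjusted p = 0.851, limma). The control spread of 0.307% of the mean is under the 0.556% that counting alone gives at its mean read number. An SD of 3 values is itself uncertain, and whether counting alone could give this spread was not tested. Blnc1 LKO livers varied by 8.23% of their mean.

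Cyp7b1, the oxysterol 7-alpha-hydroxylase of the alternative route, had the largest fold change of the 10 genes. It is on the − strand of chromosome 3 (18071950 to 18243338). The counts were 3345, 5684 and 3584 in control and 8273, 4956 and 6436 in Blnc1 LKO livers. Blnc1 LKO replicates 1 and 3 lay above all controls, and replicate 2 lay below control replicate 2. The group means were 4204 ± 1287 and 6555 ± 1662 (SD, n = 3 each), and the log2 difference was 0.65 (SE 0.22, interval 0.14 to 1.16, unadjusted p = 0.0186, adjusted p = 0.824, limma). It ranged from 0.47 without Blnc1 LKO replicate 1 to 0.89 without control replicate 2.

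The mRNA balance of the classical and alternative routes was read as the log2 ratio of Cyp7a1 to Cyp7b1 in each liver. Flux through either route was not measured. It was 2.57, 2.01 and 1.97 in control and 1.56, 1.54 and 1.36 in Blnc1 LKO livers. All Blnc1 LKO livers had a lower ratio than all controls, by 0.70 on the mean log2 scale (two-sided exact permutation p = 0.1, the smallest possible). The mean ratio was 2.18 ± 0.33 and 1.49 ± 0.11 (SD, n = 3 each). The log2 fold change was 0.65 for Cyp7b1 and −0.045 for Cyp7a1, so the lower ratio came mostly from Cyp7b1.

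**Figure D2:**
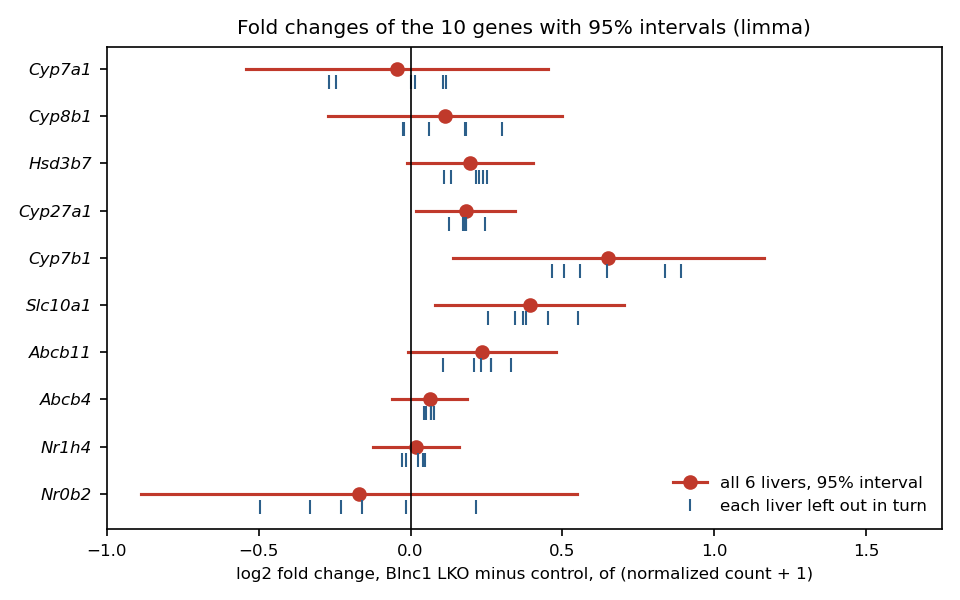
Log2 fold change (x axis, Blnc1 LKO minus control) of the 10 genes, with the 95% interval of limma as a red bar and the values with each liver left out in turn as blue ticks. The intervals of Cyp27a1, Cyp7b1 and Slc10a1 lie above 0 before adjustment for many genes, and the blue ticks of Cyp7a1, Cyp8b1, Nr1h4 and Nr0b2 fall on both sides of 0.

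Slc10a1 encodes NTCP, the main sodium-dependent bile acid importer of the hepatocyte, on the − strand of chromosome 12 (80953183 to 80968705). Its counts were 24062, 26579 and 22792 in control and 38803, 25707 and 33055 in Blnc1 LKO livers. Blnc1 LKO replicates 1 and 3 lay above all controls, and replicate 2 lay within the control range. The mean was 24478 ± 1928 for control and 32522 ± 6564 for LKO (SD, n = 3 each), a ratio of 1.33. Its log2 difference was 0.39 (SE 0.14, interval 0.081 to 0.70, unadjusted p = 0.0194, adjusted p = 0.824, limma), and it was 0.26 without replicate 1 and 0.55 without replicate 2 of the Blnc1 LKO livers. DESeq2 gave an unadjusted p of 0.00214 and an adjusted p of 0.201.

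Abcb11, the bile salt export pump of the canaliculus, is the gene whose promoter repeat is printed above (− strand of chromosome 2, 69238282 to 69342616). Control livers had counts of 23648, 21855 and 22613, and Blnc1 LKO livers had 31831, 23328 and 25652. Blnc1 LKO replicate 1 stood far above the rest, and replicate 2 was inside the control range. Its log2 difference was 0.23 (SE 0.11, interval −0.0079 to 0.48, adjusted p = 0.885, limma) and 0.11 without Blnc1 LKO replicate 1. The log2 ratio of Abcb11 to Slc10a1, export set beside uptake, was −0.11 ± 0.15 for control and −0.26 ± 0.11 for LKO (SD, n = 3 each, two-sided exact permutation p = 0.2). The difference of −0.16 became −0.25 without control replicate 2.

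Abcb4 encodes MDR2, which moves phosphatidylcholine into bile, on the + strand of chromosome 5 (8893717 to 8959231). It was the steadiest of the genes, with counts of 27156, 27169 and 26476 in control and 27979, 27612 and 28793 in Blnc1 LKO livers. The groups did not overlap, yet the means differed by a ratio of 1.04. This is a log2 difference of 0.062 (SE 0.054, interval −0.060 to 0.19, adjusted p = 0.971, limma). Across all genes tested, the Blnc1 LKO livers lay entirely above the controls for 5.35% and entirely below for 5.28%. Among the 10 genes this held upward for 2, Cyp27a1 and Abcb4, and downward for 0.

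Nr1h4, the gene of FXR, lies on the − strand of chromosome 10 (89454234 to 89533585). Counts were 11792, 11853 and 10715 in control and 12162, 11153 and 11484 in Blnc1 LKO livers. The groups overlapped almost fully, and the log2 fold change was 0.019 (SE 0.062, adjusted p = 0.994, limma). Its 95% interval was −0.12 to 0.16, and only that of Abcb4 was narrower among the 10.

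Nr0b2, the gene of the repressor SHP, lies on the + strand of chromosome 4 (133553376 to 133556536). Its counts were 1802, 1243 and 3338 in control and 1717, 1407 and 2180 in Blnc1 LKO livers. Control replicate 3 was the highest and control replicate 2 the lowest, so the controls enclosed all Blnc1 LKO livers. Its log2 difference was −0.17 (SE 0.31, interval −0.89 to 0.55, adjusted p = 0.986, limma). Without control replicate 3 it was 0.22.

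The 10 genes differed widely in how steady they were between livers of the same group. The SD of log2 counts within groups was 0.56 for Nr0b2, 0.39 for Cyp7b1, 0.38 for Cyp7a1 and 0.29 for Cyp8b1, which is larger than in 99.6%, 99.0%, 98.9% and 97.5% of the 7831 genes with a mean count of at least 1000. At the other end it was 0.027 for Abcb4, larger than in 2.58% of those genes, and 0.073 for Nr1h4, larger than in 41.8%. SHP and 3 of the synthesis enzymes thus varied most, and the phospholipid transporter and the receptor varied least. Counting error was at most 2.26% of the mean for any of the 10, far below the spread of the variable genes.

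Compared per kilobase of annotated exon, the control livers ranked Cyp27a1 first (13785 normalized counts per kb ± 42.3, SD, n = 3), then Hsd3b7 (12888 ± 955) and Slc10a1 (11131 ± 877). Cyp8b1 followed at 8253 ± 2004. Nr1h4, Cyp7a1 and Abcb11 came next, at 4973 ± 278, 4541 ± 1081 and 4412 ± 175, and neighbours among these 3 overlapped. Abcb4 (2871 ± 42.3), Cyp7b1 (1941 ± 594) and Nr0b2 (1880 ± 958) were the lowest. Hsd3b7 and Slc10a1 overlapped in control livers, as did Slc10a1 and Cyp8b1, and Cyp7b1 and Nr0b2. With the longest coding transcript as the length instead, Hsd3b7 (19522 per kb) passed Cyp27a1 (15832) and Abcb4 (6603) passed Nr1h4 (5690). The order therefore depends on the length used.

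**Figure D3:**
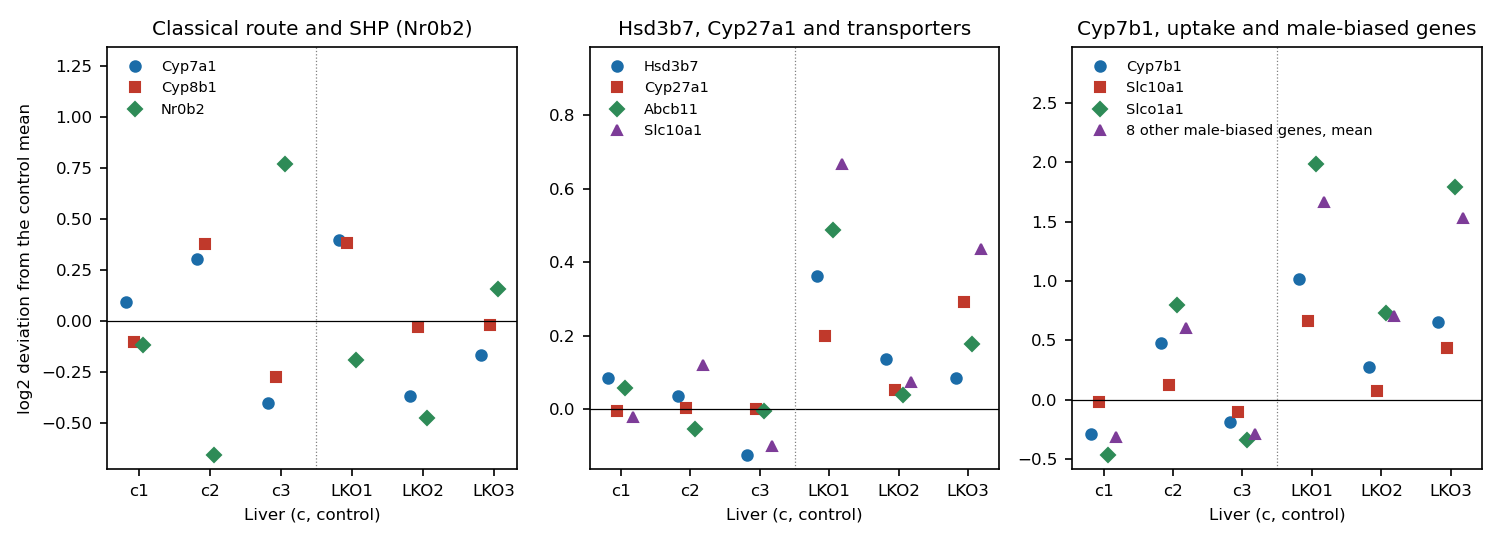
Log2 deviation from the control mean (y axis) of each gene in each liver (x axis, c for control), in 3 groups of genes. Cyp7a1 and Cyp8b1 were high in c2 and LKO1 while Nr0b2 was highest in c3. Cyp7b1, Slc10a1, Slco1a1 and the mean of 8 other male-biased genes were all highest in LKO1, and in the controls all highest in c2.

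The livers with high Cyp7a1 also had high Cyp8b1, and Nr0b2 ran the other way in the controls. Over the 6 livers, Pearson's r between log2 counts of Cyp7a1 and Cyp8b1 was 0.854 (exact permutation p = 0.0403) and Spearman's rho was 0.829 (exact permutation p = 0.0583). For each pair, r was also taken over 4 livers, without the 2 farthest from the median of the gene named first. For Cyp7a1 and Cyp8b1 this gave r = 0.66. For Cyp7a1 and Nr0b2, r was −0.531 (exact permutation p = 0.282) and rho was −0.543 (exact permutation p = 0.297), and r was −0.308 without the 2 farthest livers. For Cyp8b1 and Nr0b2, r was −0.709 (exact permutation p = 0.103) and rho −0.60 (exact permutation p = 0.242), and r was −0.82 without the 2 farthest livers. All 45 pairs of the 10 genes were computed, and none passed after Benjamini-Hochberg adjustment (smallest adjusted value 0.104 for r and 0.125 for rho).

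The pairs with the smallest p for r were Cyp27a1 with Abcb4, Cyp7a1 with Nr1h4, and Cyp7b1 with Slc10a1. Cyp7a1 and Nr1h4 ranked the 6 livers in the same order (rho = 1.0, exact permutation p = 0.00278, adjusted 0.125), with r = 0.942 (exact permutation p = 0.00556, adjusted 0.104) and r = 0.965 without the 2 farthest livers. For Cyp7b1 and Slc10a1, r was 0.928 (exact permutation p = 0.00694) and rho 0.943 (exact permutation p = 0.0167), and r was 0.906 without the 2 farthest livers. For Cyp27a1 and Abcb4, r was 0.918 (exact permutation p = 0.00417) and rho 0.943 (exact permutation p = 0.0167), and r was 0.676 without the 2 farthest livers. With each gene centred on its group means, r was 0.967 for Cyp7a1 with Nr1h4, 0.852 for Cyp7b1 with Slc10a1 and 0.766 for Cyp27a1 with Abcb4. As descriptions over the 6 livers and 12862 other genes of at least 1 CPM on average, the profiles most like Cyp7a1 were those of Chmp7, Mrpl46 and Vps4a (r from 0.986 to 0.989), those most like Abcb11 were Isoc2b, Kcnn2 and Sdf4 (r from 0.992 to 0.993), and those most like Nr0b2 were Zfp612, Slbp and Otud1 (r from 0.970 to 0.991).

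Cyp7b1 is known to be expressed more in male than in female mouse liver, as is Slco1a1, a sinusoidal carrier of organic anions and bile acids. The sex of the mice is not stated in the study's methods or in the sample labels used here. Slco1a1 counts were 3037, 7289 and 3308 in control and 16598, 6943 and 14479 in Blnc1 LKO livers, which is a log2 difference of 1.5 (SE 0.39, unadjusted p = 0.00407, adjusted p = 0.607, limma). Blnc1 LKO replicates 1 and 3 lay above all controls, and replicate 2 lay below control replicate 2, the pattern that Cyp7b1 showed. The mean of 8 other male-biased genes, as a log2 deviation from the control mean, was −0.32, 0.60 and −0.29 in control and 1.67, 0.70 and 1.53 in Blnc1 LKO livers. Cyp7b1 deviated by −0.29, 0.48 and −0.19 in control and by 1.02, 0.28 and 0.66 in Blnc1 LKO livers. Thus the control liver with the most male-biased expression was also the control liver with the most Cyp7b1, and the part of this pattern in the Cyp7b1 and Slc10a1 values was not tested.

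All 10 male-biased genes of the list had a positive fold change (median 0.86), 8 at an unadjusted p under 0.05, and 0 passed after adjustment (limma). Of all genes, 2.94% were higher at an unadjusted p under 0.05. Their summed count was 610446 to 869969 in control livers and 918873 to 1245295 in LKO livers, of which Mup20 was 91.2% in control. Without Mup20 the sums were 46981 to 83198 and 89603 to 157742. Hsd3b5, a steroid-metabolizing enzyme, had the largest log2 fold change of the list, 4.04, with counts of 20.5, 120 and 16.0 in control and 2568, 209 and 363 in Blnc1 LKO livers. Cyp4a12a, Cyp4a12b, Elovl3, Mup20 and Cyp2d9 had log2 fold changes from 0.49 to 1.51. Of 10 female-biased genes, 6 were positive and 4 negative. Cyp17a1, a steroid hydroxylase, had a log2 difference of −1.19 (SE 0.22, adjusted p = 0.523, limma), Cyp2a4 one of −0.75, Cyp2b13 0.88 and Cyp3a44 1.33, and 0 passed. With 1 liver left out, Cyp2a4 ranged from −1.25 without control replicate 2 to −0.39 without control replicate 1. Without control replicate 2, Cyp2b13 was at 0.22 and Cyp3a44 at 0.86, and Cyp2b13 was at 0.40 without Blnc1 LKO replicate 1.

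The wider pathway was described by 45 tested genes in 4 lists by role, and none passed an adjusted p under 0.05 in limma. At an unadjusted p under 0.05 there were 6, of which 2 were higher and 4 lower, against 2.94% of all genes higher and 2.74% lower. DESeq2 on the recovered reads called 1 of the 45, against 0.486% of all genes. Among 14 other synthesis enzymes the median log2 fold change was 0.083, with 9 positive and 0 at an unadjusted p under 0.05. Their largest values were 0.33 for Cyp46a1 (cholesterol 24-hydroxylase), 0.20 for Slc27a5 (bile acyl-CoA synthetase) and 0.19 for Acox2 (side-chain oxidation), with groups that overlapped for each. Cyp46a1 was at 0.13 without control replicate 3, and Slc27a5 ranged from 0.094 without Blnc1 LKO replicate 1 to 0.33 without Blnc1 LKO replicate 2.

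**Figure D4:**
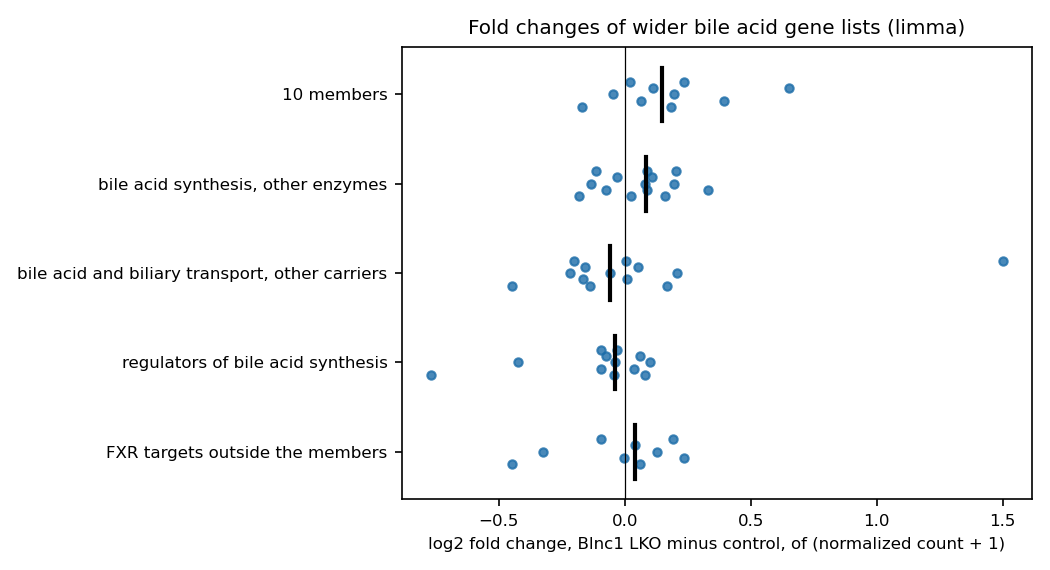
Log2 fold change (x axis, Blnc1 LKO minus control) of each gene in the set of 10 and in 4 wider lists, with the list median as a black bar. The medians lie between −0.060 and 0.15, and the point at 1.5 is Slco1a1.

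Among 13 other carriers, 6 had a positive and 7 a negative fold change, with a median of −0.060. Abcg2, an exporter of sterols and drugs, was higher in mean (11861 ± 380 against 13735 ± 1582, SD, n = 3 each, log2 fold change 0.21, unadjusted p = 0.0378, limma), and its fold change was 0.13 without Blnc1 LKO replicate 1. Groups did not overlap, with Blnc1 LKO below control, for Slc10a2, the apical sodium-dependent bile acid transporter (1590 ± 79.6 against 1370 ± 124, log2 fold change −0.22), and Slc51b, a subunit of the basolateral exporter (76.3 ± 8.25 against 55.5 ± 2.52, log2 fold change −0.45). Their unadjusted p-values were 0.0254 and 0.0313, and their adjusted p-values were 0.840 and 0.848 (limma). For Slc10a2 the lowest control count was 1499 and the highest Blnc1 LKO count 1491. Slc51b had only 48 to 80 reads per liver, with a counting error of 12.3% of its mean. Of all genes tested, 5.28% had every Blnc1 LKO liver below every control liver. Slc51a was not analysed here.

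Slc10a2 is a transporter of cholangiocytes in liver, so cholangiocyte markers are set beside it. All 7 markers were detected in every liver, with 2 positive and 5 negative fold changes and a median of −0.043. Their summed count was 61459 to 73569 in control and 49048 to 73652 in Blnc1 LKO livers, but 92.3% of the control sum was Spp1. The other markers summed to 4317 to 6082 and 4519 to 6090. Their part in the Slc10a2 values was not tested.

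Of 12 regulators of bile acid synthesis, 4 had a positive and 8 a negative fold change (median −0.041). Vdr, the vitamin D receptor, had the largest, with 28.9, 38.4 and 36.2 counts in control and 17.9, 16.9 and 25.1 in Blnc1 LKO livers (log2 fold change −0.77, SE 0.26, adjusted p = 0.824, limma). Rxra, the partner of FXR, had 0.10, Nr1i2 (PXR) −0.094, and Zfp36l1 −0.093. Each moved with 1 liver left out, to 0.036 for Rxra without Blnc1 LKO replicate 3, −0.012 for Nr1i2 without control replicate 3 and −0.043 for Zfp36l1 without control replicate 2. Fgf15 was not analysed here.

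FXR targets outside the 10 genes numbered 9, with 5 positive and 4 negative fold changes and a median of 0.039. Sdc1, the heparan sulfate proteoglycan syndecan-1, had counts of 14301, 13814 and 15708 in control and 11775, 12039 and 11174 in Blnc1 LKO livers, all lower than every control. Its log2 fold change was −0.32 (SE 0.064, unadjusted p = 0.00081, adjusted p = 0.548, limma), and DESeq2 called it (adjusted p = 0.00732), the one pathway gene it called. Osgin1 and Fgb had values of 0.24 and 0.19 with overlapping groups, and Slc51b is given above. The Osgin1 value was 0.0040 without control replicate 1 and 0.47 without control replicate 3, and Fgb was at 0.12 without control replicate 3. Of the 9 genes, 2 (Sdc1 and Slc51b) had every Blnc1 LKO liver below every control, and 1 had every Blnc1 LKO liver above. Among all genes tested, 5.28% lay entirely below and 5.35% entirely above. FXR targets did not share a direction, and of those among the 10 genes, Abcb11 was higher in mean and Nr0b2 overlapped.

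Cyp7a1 mRNA follows the time of day, and the hour at which livers were taken is not given in the sources used here. Of 11 clock genes, 6 had a positive and 5 a negative fold change, from −0.099 for Per2 to 0.12 for Tef, with 0 at an unadjusted p under 0.05 (limma). Per2 ranged from −0.23 without Blnc1 LKO replicate 3 to −0.00070 without Blnc1 LKO replicate 1. Nr1d1 had counts of 6475, 6163 and 5713 in control and 8009, 7331 and 4868 in Blnc1 LKO livers. Blnc1 LKO replicate 3 was the lowest and replicate 1 the highest of all 6, whereas the controls lay close together. Their part in the spread of Cyp7a1 was not tested.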

How the data were processed

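Liver mRNA, polyA-selected, was sequenced from 3 control and 3 Blnc1 LKO mice. The authors used STAR with the mm10 genome for alignment, HTSeq for gene counts and DESeq2. Versions, annotation and strand setting are not given in the sources used here. The deposited signal is a gene's read count scaled by its library's size factor, with no correction for gene length. Columns named for wild type and knockout were matched to control and LKO samples by number. Dividing by the smallest value above 0 gave whole reads for 100% of values (tolerance 0.01).

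In R 4.3.3, limma 3.58.1 modelled log2(value + 1), using a trended prior, over the 17297 genes valued at 1 or more in 3 or more livers, without covariates. A fold change on this scale is understated for low genes. edgeR (4.0.16), DESeq2 (1.42.0) and voom on recovered reads, other pseudocounts, filters and scaling, a replicate block and leaving out each liver were alternatives. The fits were tested on simulated counts with larger changes than any of the 10 genes had. That test does not show how well changes of their size would be found. Single values were compared by exact permutation (SciPy 1.17.1). Lengths and places came from GENCODE M21 (GRCm38, the build also called mm10). The 10 genes and all lists were chosen with earlier results of these data known. Besides these genes, the text names, from each pathway, clock and sex-biased list, genes with an unadjusted p under 0.05 and the 3 largest changes at a mean of 1 CPM or more, and the 3 genes of highest Pearson correlation with each of Cyp7a1, Abcb11 and Nr0b2.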

Additional observations from a re-analysis of the deposited data

How the results depend on the processing

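Under all 15 alternatives, 0 of the 10 genes passed an adjusted p under 0.05. The count of 1 called gene in the whole table (limma) became 84 with DESeq2, and 2 with edgeR, without a filter or with a pseudocount of 10, and it ranged from 0 to 13 with 1 liver left out (13 without Blnc1 LKO replicate 2, 3 without control replicate 2, 0 without control replicate 1). The count of pathway genes became 1 with DESeq2 (Sdc1). With the replicate number as a block, 0 genes passed over all genes. Deviations of same-numbered livers correlated at −0.058, −0.019 and −0.11 over 17297 genes, and those of unlike number at −0.047 to 0.11. With 3 livers per group, these values cannot show whether same-numbered livers shared a litter or day. With 1 liver left out, the log2 fold change changed sign for Cyp7a1 (−0.27 to 0.12), Cyp8b1 (−0.024 to 0.30), Nr1h4 (−0.028 to 0.047), Nr0b2 (−0.50 to 0.22) and, among the other genes named, Nr1d1 (−0.032 to 0.33). Over all alternatives, 9 of 150 values of the 10 genes changed sign, all with 1 liver left out. The 3 log2 ratios kept their sign under every alternative run for them, with differences of 0.060 to 0.24 for Cyp8b1 to Cyp7a1, −0.80 to −0.51 for Cyp7a1 to Cyp7b1 and −0.25 to −0.11 for Abcb11 to Slc10a1. The cause of these shifts was not tested. Depth gave each of the 10 genes a counting error of at most 2.26% of its mean.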
